A study of Mus musculus with 6 samples.

Results

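The collagen family of the epididymal fat pad was read across 6 mice. Members were the protein-coding genes of the GENCODE M21 annotation whose symbol is Col followed by a digit, which gave 44 of 21951 annotated protein-coding genes. By class these were 11 fibrillar, 6 type IV, 6 type VI and 21 other collagens. Reads were found for 36 members, and 20 passed the filter on low counts and were tested, of 9772 tested genes among 23492 with a read. The tested members were 6 fibrillar, 4 type IV, 5 type VI and 5 other collagens.

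The fat pad beside the epididymis was homogenised whole, and its poly-A RNA was read as direct cDNA by Nanopore sequencing, in which 1 read stands for 1 cDNA molecule without PCR. All mice were male wild type C57BL/6N, an inbred strain, aged 20 weeks. The cold group was 3 mice (7, 12 and 16), which spent 24 h singly housed at 4 °C. The ctrl group was 3 mice (5, 6 and 10). Ordinary housing was at 22 to 24 °C, and single housing of ctrl mice is not mentioned in the labels. Each library came from 1 mouse, so the replicates are animals. The comparison asks how this fat pad differs after a day in the cold. In such bulk RNA, fewer cells of a type and less RNA per cell cannot be told apart.

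Total reads were 726283 to 1194134 in cold libraries and 939107 to 1341592 in ctrl libraries, so that 1 read was worth 0.747 to 1.38 CPM (reads scaled to a common library total). Of 6 adipocyte markers, Fabp4 had 22334 to 23455 CPM in cold mice and 16378 to 19789 CPM in ctrl mice. The other 5 summed to 10136 to 10291 CPM in cold mice and 10462 to 10802 CPM in ctrl mice, and 0 of the 6 were called. The sum joins genes that went in opposite directions. Lep had 499, 689 and 866 CPM in cold mice, against 417, 488 and 407 CPM in ctrl mice (log2 fold change 0.67, edgeR adjusted p = 0.0628). Plin1 had 1450 to 1503 CPM in cold mice and 1657 to 1780 CPM in ctrl mice (log2 fold change -0.19, edgeR adjusted p = 0.748). Markers of simple epithelium summed to 106 to 194 CPM in cold mice and 18.7 to 49.1 CPM in ctrl mice. Of 5 tested epithelial markers among 8 listed, Krt8, Krt18, Epcam and Cldn7 were higher in cold mice by edgeR at an adjusted p under 0.05. Krt19 was not called (edgeR adjusted p = 0.658), and Cdh1, Krt7 and Cldn4 did not pass the filter. Krt7 went the other way, with means of 5.75 CPM in cold mice and 9.34 CPM in ctrl mice, whereas Cdh1 had 7.51 and 0.899 CPM. Fibroblast and precursor markers summed to 2456, 1921 and 1708 CPM in cold mice and 2334, 1495 and 2122 CPM in ctrl mice. Mesothelial markers summed to 139, 56.2 and 66.4 CPM in cold mice and 182, 62.0 and 173 CPM in ctrl mice. The sums of endothelial, pericyte and smooth muscle, and macrophage markers overlapped between groups too. No tested marker in any of these lists was called. Of 4 cartilage and bone markers, Acan, Bglap and Ibsp were at 0 in all 6 mice. The fourth, Sox9, which epithelia also express, had 19.3, 67.9 and 61.3 CPM in cold mice and 22.4, 17.9 and 26.5 CPM in ctrl mice (log2 fold change 1.24, edgeR adjusted p = 0.0988).

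Collagens are secreted proteins of 3 chains wound into a triple helix, a fold that needs glycine at regular steps along each chain. Fibrillar collagens form the banded fibres of connective tissue. Type IV collagen forms the sheet of the basement membrane, which wraps each adipocyte and capillary. Type VI collagen forms beaded microfilaments at the border between basement membrane and fibres and is abundant in adipose tissue. The remaining types include fibre-associated, multiplexin, transmembrane and network-forming collagens.

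The glycine rule can be read directly in the cDNA, as a codon that starts with GG in every group of 3 codons. The stretches below are from the 3 classes described most fully, 90 bases each, 5′ to 3′ from the GENCODE M21 transcript with most reads. Capitals mark the glycine codon that opens each group of 3, and glycine codons at other positions stay in lower case.
Col3a1: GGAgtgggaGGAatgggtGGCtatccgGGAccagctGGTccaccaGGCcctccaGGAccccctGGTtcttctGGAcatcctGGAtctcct
Col4a1: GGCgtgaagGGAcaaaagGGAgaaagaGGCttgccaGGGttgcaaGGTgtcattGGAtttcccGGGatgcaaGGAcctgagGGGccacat
Col6a6: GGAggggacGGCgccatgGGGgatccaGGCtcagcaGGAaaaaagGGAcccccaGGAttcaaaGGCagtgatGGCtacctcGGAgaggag
Each stretch opens the longest unbroken run of its transcript, so the spacing is the same in all 3 by that choice. The residues between differ. The classes differ in how long the run continues before it is broken. The longest unbroken run was 344 repeats in Col3a1 and 337 in Col5a3, the highest and lowest of types I, III and V, and 217 in Col27a1, a fibrillar chain with a shorter run. Among genes with at least 20 reads, it was 39 to 66 repeats in the 6 of type IV and 37 to 87 in the 5 of type VI. In the 9 other collagens it was 28 (Col28a1) to 61 (Col8a1), apart from Col12a1 and Col14a1. The most read transcripts of these 2 have annotated coding parts of 940 and 1561 bases, which are not multiples of 3. Codons were counted from the first coding base without the annotated frame, so the runs of 2 and 4 found there are not reliable. That transcript of Col12a1 codes for 313 codons only, a part of the chain. Of the members with fewer reads, the fibrillar Col11a1 and Col11a2 had 338 repeats, Col22a1 and Col9a3 had 113 and Col7a1 had 75. Col13a1 had 3, in a coding part of 731 bases, which is no multiple of 3 either, so that run is not reliable. With codons counted in the same way, 4 of 9370 other protein-coding genes tested reached 30 repeats, and the median was 2. These 4 were C1qtnf7, C1qtnf9, Colec12 and Scara3, which encode proteins with collagen-like domains.

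**Figure D1:**
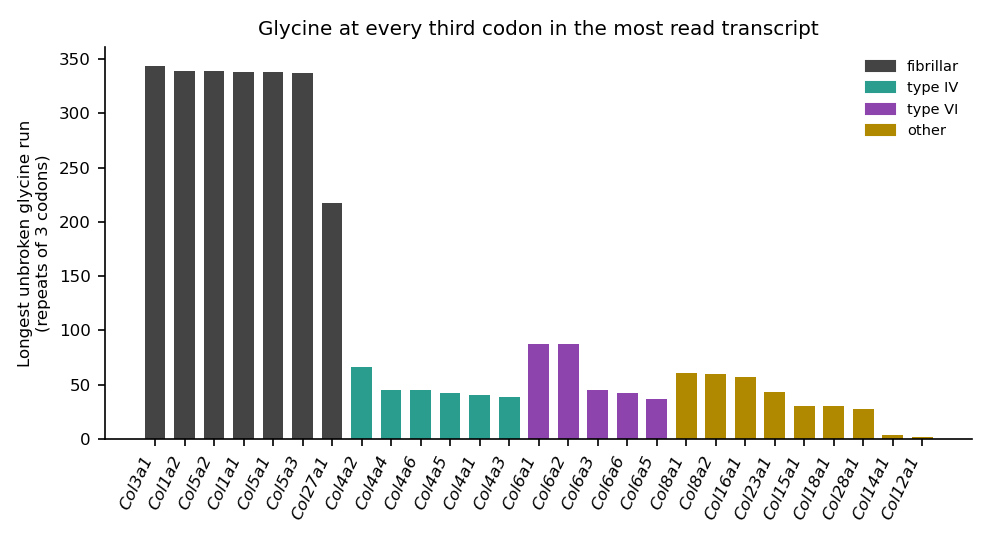
The bars give the longest unbroken run of glycine in repeats of 3 codons, for the 27 collagens with at least 20 reads, in the transcript with most reads. Fibrillar genes other than Col27a1 stand at 337 to 344 repeats, and type IV and type VI genes at 37 to 87. The bars of Col12a1 and Col14a1 are not reliable, because their coding parts are not multiples of 3 and the annotated frame was not used.

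Summed over all members, collagens made up 0.429%, 0.325% and 0.447% of reads in cold mice 7, 12 and 16, against 0.405%, 0.363% and 0.441% in ctrl mice 5, 6 and 10. The mean was 4004 ± 660.3 CPM in cold mice and 4029 ± 388 CPM in ctrl mice (SD, n = 3 each), a log2 ratio of -0.01. The groups overlapped, with cold 12 lowest and cold 16 highest. In all, 24142 reads came from collagen genes.

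The fibrillar class summed to 2060 CPM in cold 7, 1327 CPM in cold 12 and 1636 CPM in cold 16, against 1780, 1440 and 1969 CPM in ctrl 5, 6 and 10. The type IV class summed to 959.6, 808 and 1281 CPM in cold mice, against 821, 960.1 and 904 CPM in ctrl mice. The type VI class summed to 649, 503 and 645 CPM in cold mice, against 686, 552 and 726 CPM in ctrl mice. All 3 classes overlapped between groups, and cold 12 was the lowest of the 6 mice in each. Other collagens summed to 625, 611 and 908 CPM in cold mice and 764, 679 and 808 CPM in ctrl mice, with both extremes in the cold group. The log2 ratios of the means were -0.05 for fibrillar, 0.18 for type IV, -0.13 for type VI and -0.07 for other collagens. With 1 mouse left out they were -0.22 to 0.10 for fibrillar, -0.02 to 0.32 for type IV and -0.28 to 0.03 for other collagens. The sign turned without cold 12 or ctrl 10 for fibrillar, without cold 16 for type IV and without cold 7 or cold 12 for other collagens. It did not turn for type VI (-0.24 to -0.02).

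**Figure D2:**
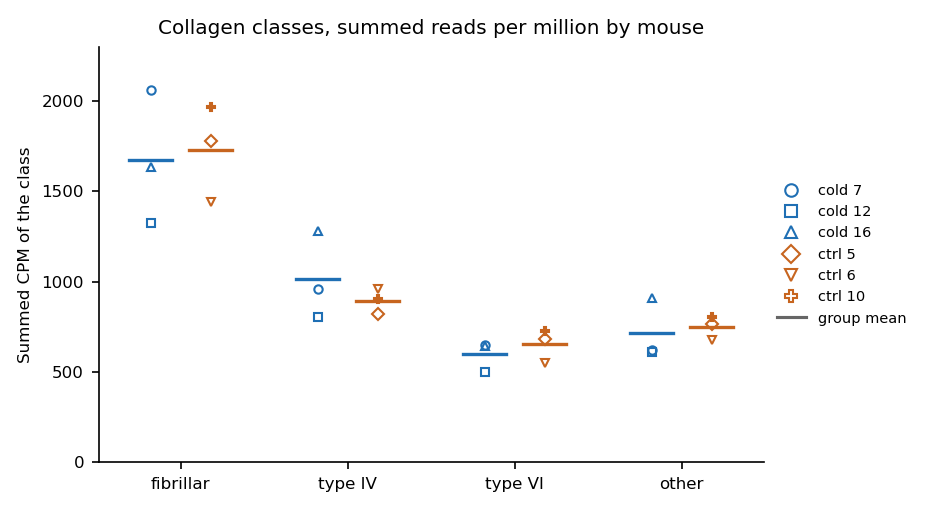
Points give the summed CPM of each collagen class in each mouse, cold mice left and ctrl mice right, and lines give group means. The cold points of the type IV class spread from 808 to 1281 CPM around ctrl points of 821 to 960.1 CPM.

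As shares of collagen reads, fibrillar genes took 41.8 ± 5.75% in cold mice and 42.8 ± 2.71% in ctrl mice (SD, n = 3 each). Type IV took 25.3 ± 3.18% in cold mice and 22.4 ± 3.50% in ctrl mice. Type VI took 15.0 ± 0.54% in cold mice and 16.2 ± 0.90% in ctrl mice. The groups overlapped in each of these shares.

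Of the 20 tested members, 1 fell in the cold and 0 rose at an edgeR adjusted p under 0.05. Over all tested genes 0.655% were called (64 of 9772), 0.542% higher and 0.113% lower. Of the members, 9 had a log2 fold change above 0 and 11 below, with a median of -0.06, beside a median of 0.01 over all genes tested. An unadjusted p under 0.05 was reached by 2 members, against 8.43% of all genes. The groups did not overlap in 4 tested members, Col4a5 and Col14a1 with cold above and Col6a5 and Col6a6 with cold below. Over all genes, 5.96% had cold above and 7.7% had cold below, 13.7% together. By DESeq2 and by limma-voom 0 members were called.

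**Figure D3:**
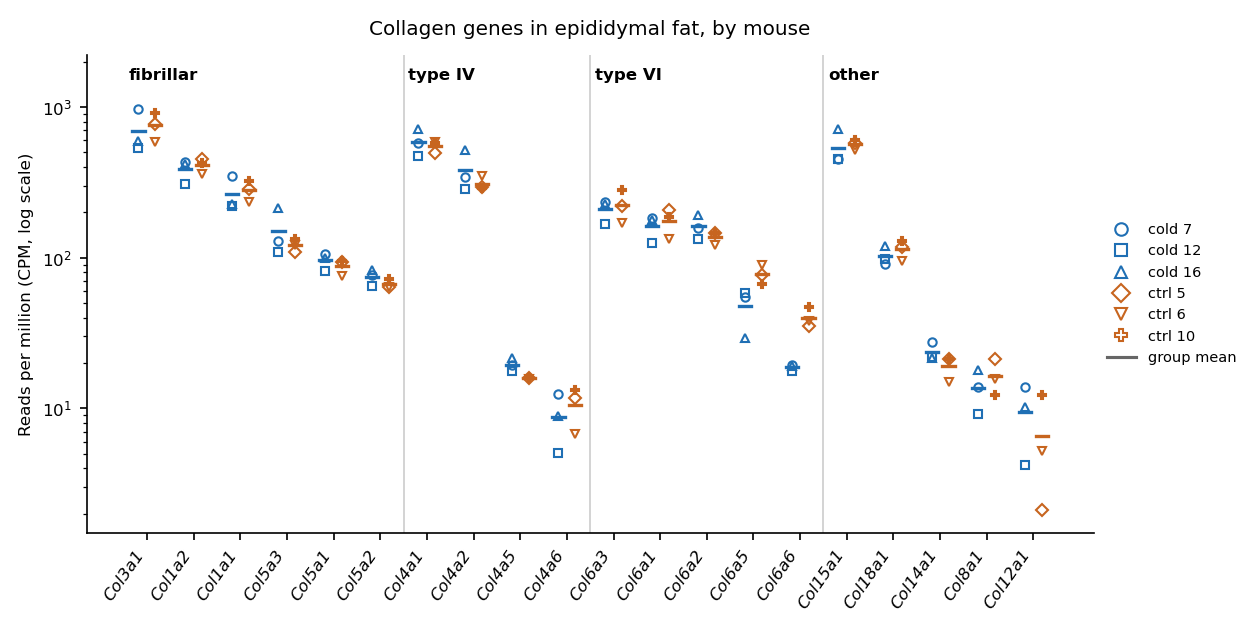
Points give CPM on a log scale in each mouse for the 20 tested collagen genes by class, cold mice left and ctrl mice right, and lines give group means. Levels span from under 10 CPM for Col12a1 to over 700 CPM for Col3a1, and Col6a6 shows the 3 cold mice below the 3 ctrl mice.

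Among fibrillar genes, Col3a1, the single chain of type III collagen of soft tissues, had 962, 536 and 591 CPM in cold 7, 12 and 16, against 773, 587 and 909 CPM in ctrl 5, 6 and 10. Both its highest and its lowest value were in the cold group, and the log2 fold change was -0.09 ± 0.19 (SE). Col1a2, the second chain of type I collagen, had 430.2, 308 and 418 CPM in cold mice, against 449, 357 and 427 CPM in ctrl mice (log2 fold change -0.07). Col1a1, its main chain, had 350.2, 221 and 227 CPM in cold mice, against 286, 234 and 324 CPM in ctrl mice (log2 fold change -0.06). Neither chain separated the groups. Type I collagen pairs 2 chains from Col1a1 with 1 from Col1a2, whereas Col1a1 had fewer reads than Col1a2 in all 6 mice. The ratio of Col1a1 to Col1a2 reads was 0.693 ± 0.137 in cold mice and 0.684 ± 0.0652 in ctrl mice (SD, n = 3 each).

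Type V collagen sits inside type I fibres and sets their width. Col5a3, a chain described in adipose tissue, had 129.6, 109.9 and 215 CPM in cold 7, 12 and 16, against 109, 121 and 133 CPM in ctrl 5, 6 and 10. Cold 16 stood apart upward, and the log2 fold change was 0.32 ± 0.19 (SE; edgeR adjusted p = 0.728). Col5a1 and Col5a2 had log2 fold changes of 0.14 and 0.17, with means of 96.0 and 74.9 CPM in cold mice and 88.2 and 66.9 CPM in ctrl mice. The cartilage collagen gene Col2a1 and the developmental Col24a1 had 0 reads, and Col11a1 and Col11a2 had 2 each. Col27a1 had 8 reads in cold mice and 15 in ctrl mice and was not tested.

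The main type IV chains are encoded by Col4a1 and Col4a2, which are transcribed away from each other from start sites 21 bases apart on chromosome 8. Their RefSeq promoter windows (GRCm38.p6, 250 bases before to 50 after the start) share 78 bases and are shown because 1 stretch of DNA serves both genes. The Col4a1 window is chr8:11312777-11313076, minus strand, and the Col4a2 window chr8:11312555-11312854, plus strand. Capitals mark the GC box GGGCGG and the CCAAT box on either strand.
Col4a1: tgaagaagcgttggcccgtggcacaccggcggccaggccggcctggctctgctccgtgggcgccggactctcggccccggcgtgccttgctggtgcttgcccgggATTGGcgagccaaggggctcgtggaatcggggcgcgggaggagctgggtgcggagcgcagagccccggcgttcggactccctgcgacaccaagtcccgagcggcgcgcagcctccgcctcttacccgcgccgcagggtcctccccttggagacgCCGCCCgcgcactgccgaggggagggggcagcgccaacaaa
Col4a2: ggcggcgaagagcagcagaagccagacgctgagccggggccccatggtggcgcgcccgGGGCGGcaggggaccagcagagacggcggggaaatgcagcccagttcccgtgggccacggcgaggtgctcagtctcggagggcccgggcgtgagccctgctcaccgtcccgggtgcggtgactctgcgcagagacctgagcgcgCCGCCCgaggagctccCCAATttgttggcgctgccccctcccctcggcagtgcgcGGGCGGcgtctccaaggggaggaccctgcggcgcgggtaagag
The window of Col4a1 holds 1 GC box and that of Col4a2 holds 3, and neither holds a TATA box spelled TATAAA. The box of Col4a1 lies in the shared bases and is the last of the 3 of Col4a2, read on the other strand.

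Col4a1 had 575, 474 and 714 CPM in cold 7, 12 and 16, against 494, 587 and 579.8 CPM in ctrl 5, 6 and 10 (log2 fold change 0.11). Col4a2 had 343, 285 and 521 CPM in cold mice, against 292, 349 and 289 CPM in ctrl mice, with a log2 fold change of 0.32 ± 0.17 (SE; edgeR adjusted p = 0.669). In both genes cold 16 was the highest and cold 12 the lowest of the 6 mice. The ratio of Col4a1 to Col4a2 reads was 1.67, 1.66 and 1.37 in cold mice, against 1.69, 1.68 and 2.01 in ctrl mice. The groups did not overlap in this ratio, although cold 7 and cold 12 lay just below ctrl 6. The 2 genes overlap by 22 bases and lie on opposite strands.

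Col4a5 and Col4a6, a second pair on chromosome X, encode chains of other basement membranes such as those of smooth muscle. Col4a5 had 19.3, 17.6 and 21.7 CPM in cold mice, against 16.0, 15.7 and 15.9 CPM in ctrl mice (log2 fold change 0.31, edgeR adjusted p = 0.861). Its groups did not overlap, but the 95% interval of the fold change was -0.27 to 0.89. Col4a6 had 12.4, 5.03 and 8.94 CPM in cold mice, against 11.7, 6.72 and 13.2 CPM in ctrl mice, with overlap.

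Col4a3 and Col4a4 lie head to head 71 bases apart on chromosome 1, and their chains are known from epithelial basement membranes such as the kidney glomerulus. Col4a3 had 2, 12 and 4 reads in cold 7, 12 and 16, against 3, 0 and 2 reads in ctrl 5, 6 and 10. Col4a4 had 5, 19 and 8 reads in cold mice, against 4, 3 and 5 reads in ctrl mice. Cold 12 was highest in both. Neither passed the filter on low counts. In CPM the groups overlapped for Col4a3 and not for Col4a4, which had 6.89, 15.9 and 10.2 CPM in cold mice, against 4.27, 2.24 and 4.41 CPM in ctrl mice. With no filter, Col4a4 had a log2 fold change of 1.68 (edgeR adjusted p = 0.0498). The epithelial markers summed to 106, 194 and 143 CPM in cold mice and 49.1, 18.7 and 37.1 CPM in ctrl mice, so cold 12 was highest there too. Their part in the Col4a3 and Col4a4 reads was not tested.

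Type VI collagen is built from a chain of Col6a1, a chain of Col6a2 and 1 longer chain, which Col6a3, Col6a4, Col6a5 or Col6a6 can supply in mice. Col6a6 was the member that fell. It had 19.3, 17.6 and 19.2 CPM in cold 7, 12 and 16, against 35.2, 38.1 and 46.8 CPM in ctrl 5, 6 and 10. Every cold mouse lay below every ctrl mouse. The mean was 18.7 ± 0.94 CPM in cold mice and 40.0 ± 6.03 CPM in ctrl mice (SD, n = 3 each). Its log2 value fell by 1.08 ± 0.24 (SE; edgeR quasi-likelihood test, adjusted p = 0.0382, 95% interval -1.59 to -0.58). The call did not hold by DESeq2 (adjusted p = 0.245) or limma-voom (0.0634), with X2 files alone (0.692), or without cold 12, cold 16, ctrl 6 or ctrl 10 (0.0714 to 0.283, edgeR). Over the 14 alternatives run for Col6a6 the log2 fold change was -1.30 to -0.78, and 6 had an adjusted p under 0.05, the lowest 0.00409.

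Col6a5, its neighbour 27917 bases away on chromosome 9, had 55.2, 57.9 and 29.4 CPM in cold mice, against 76.8, 88.8 and 67.1 CPM in ctrl mice. The groups again did not overlap, with cold 16 the lowest. The log2 fold change was -0.66 ± 0.21 (SE), with an edgeR adjusted p of 0.294. Of 630 pairs among the 36 members with reads, 3 shared any stretch of 31 bases in their most read transcripts. Col6a5 and Col6a6 shared 375 such stretches, covering 495 bases, with 219 bases identical in 1 run. The shared part lies at bases 199 to 770 of the 9289 in Col6a5-203 and at bases 356 to 927 of the 8781 in Col6a6-202, far from the 3′ end. Outside that part the 2 transcripts shared no stretch of 31 bases. How reads that match both were assigned is not given in the sources used here. The split between these 2 genes is therefore uncertain for reads confined to the shared part, and their number was not tested. Summed, the pair had 66.2 ± 15.3 CPM in cold mice and 118 ± 8.14 CPM in ctrl mice (SD, n = 3 each). Counting the pair as 1 gene was added after seeing the data, in which both were already lower in cold mice. Counted so, the pair's log2 value fell by 0.79 ± 0.17 (SE; edgeR adjusted p = 0.0339, 95% interval -1.16 to -0.43). The pair was picked by its fall, so this p is no separate evidence.

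The promoter windows of this pair are shown because they are the 2 members lowest in the cold relative to ctrl. The Col6a5 window is chr9:105960594-105960893 and the Col6a6 window chr9:105828036-105828335, both on the minus strand of GRCm38.p6, with GC boxes in capitals.
Col6a5: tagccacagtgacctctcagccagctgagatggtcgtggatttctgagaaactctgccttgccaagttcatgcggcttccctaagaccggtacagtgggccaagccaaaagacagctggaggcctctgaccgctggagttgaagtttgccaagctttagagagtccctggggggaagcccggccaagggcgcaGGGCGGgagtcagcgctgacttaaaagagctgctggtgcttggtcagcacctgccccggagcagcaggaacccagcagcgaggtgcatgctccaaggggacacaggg
Col6a6: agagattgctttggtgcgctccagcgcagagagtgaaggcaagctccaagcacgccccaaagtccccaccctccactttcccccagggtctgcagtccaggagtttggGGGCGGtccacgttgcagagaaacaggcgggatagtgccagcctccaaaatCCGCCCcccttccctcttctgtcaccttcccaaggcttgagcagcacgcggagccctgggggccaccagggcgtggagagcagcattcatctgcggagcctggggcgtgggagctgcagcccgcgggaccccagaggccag
The Col6a5 window holds 1 GC box and the Col6a6 window 2, and neither holds any of the other 4 motifs searched, which follow. RefSeq gave windows for 35 of the 44 symbols, 38 entries in all. On either strand, GGGCGG was found in 60.5% of these and in 35.7% of all 32851 windows. CCAAT was found in 34.2% of collagen and 37.4% of all windows, and TATAAA in 13.2% and 13.6%. TGANTCA, the letters of an AP-1 site, was found in 2.63% of collagen and 7.81% of all windows. The cAMP response element TGACGTCA was found in 2.63% of collagen windows, which is 1 window, and in 1.79% of all windows.

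The 3 type VI genes with most reads were not called. Col6a1 had 182, 126 and 178 CPM in cold 7, 12 and 16, against 207, 134 and 185 CPM in ctrl 5, 6 and 10 (log2 fold change -0.10). Col6a2 had 159, 133 and 193 CPM in cold mice, against 145, 121 and 146 CPM in ctrl mice (log2 fold change 0.25, edgeR adjusted p = 0.747). Col6a3, the long chain read most, had 233, 168 and 226 CPM in cold mice, against 222, 169 and 281 CPM in ctrl mice (log2 fold change -0.08, 95% interval -0.45 to 0.28). These 3 genes overlapped between the groups. The ratio of Col6a6 to Col6a3 reads was 0.0828, 0.105 and 0.0847 in cold mice, against 0.159, 0.225 and 0.167 in ctrl mice, with no overlap. Col6a4 had 3 reads in all 6 mice.

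Among other collagens, Col15a1, a multiplexin that links basement membrane to fibres, had 448, 449 and 709 CPM in cold 7, 12 and 16, against 576, 521 and 605 CPM in ctrl 5, 6 and 10. Cold 16 was above and the other cold mice below all ctrl mice (log2 fold change -0.06). Col18a1, the related source of endostatin, had 91.0, 97.3 and 120.1 CPM in cold mice, against 117, 94.8 and 129.7 CPM in ctrl mice (log2 fold change -0.12). Col14a1, a collagen on the surface of fibres, had 27.6, 21.8 and 21.7 CPM in cold mice, against 21.3, 14.9 and 21.2 CPM in ctrl mice (log2 fold change 0.33, edgeR adjusted p = 0.836). Its groups did not overlap, by a margin of under 1 read in the closest pair. Col8a1, a network-forming chain of vessel walls, had 13.8, 9.23 and 17.9 CPM in cold mice, against 21.3, 15.7 and 12.4 CPM in ctrl mice. Col12a1 had 9.40 ± 4.85 CPM in cold mice and 6.57 ± 5.24 CPM in ctrl mice (SD, n = 3 each).

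Below the filter, Col16a1 had 47 reads in all, Col23a1 37, Col28a1 34 and Col8a2 30. Col7a1, Col9a3, Col13a1, Col20a1, Col22a1 and Col26a1 had 3 to 5 reads each. The members with 0 reads were Col2a1, Col9a1, Col9a2, Col10a1, Col17a1, Col19a1, Col24a1 and Col25a1, several of them genes of cartilage or of the epidermal junction. A count of 0 over all mice allows up to 0.491 CPM, by counting error only.

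**Figure D4:**
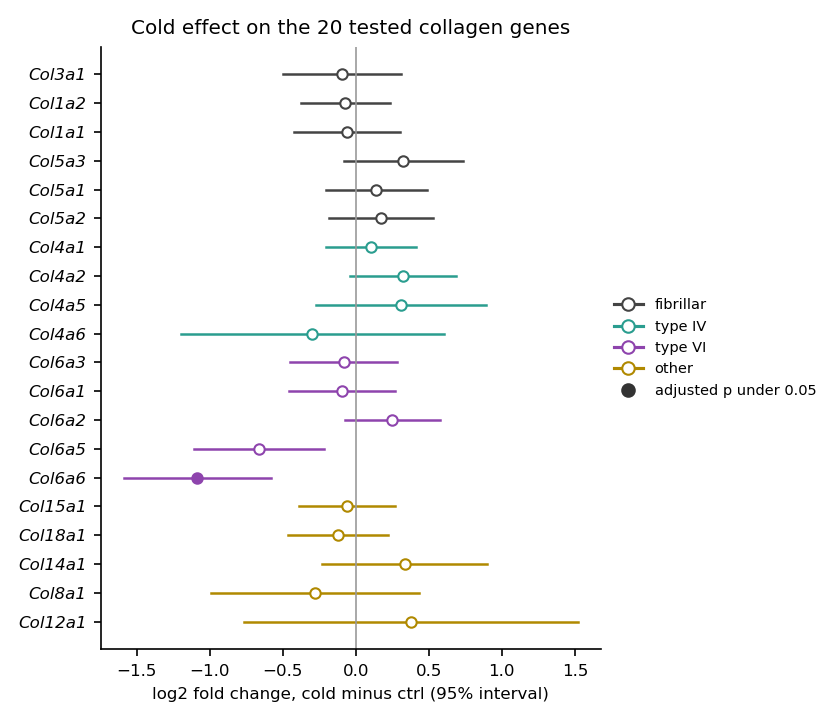
Points give the edgeR log2 fold change, cold minus ctrl, of the 20 tested collagen genes, with 95% intervals as lines and the adjusted p under 0.05 as a filled point. Col6a6 at -1.08 and Col6a5 at -0.66 have intervals below 0, and the other 18 intervals include 0.

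Where 1 read stands for 1 molecule, plain CPM already compares levels between genes. Over all 6 mice the mean was 726 CPM for Col3a1, 571 CPM for Col4a1 and 551 CPM for Col15a1. CPM per kilobase of the transcripts read is given beside it, and this division lowers genes with long transcripts. Per kilobase, Col3a1 had 126 in cold mice and 136 in ctrl mice, and Col15a1 127 in cold mice and 134 in ctrl mice. Col4a1 followed with 91.1 in cold mice and 85.8 in ctrl mice, then Col1a2 with 72.3 in cold mice and 77.1 in ctrl mice. The order of Col3a1 and Col15a1 per kilobase was not separated by the spread between mice. Col6a6 had 2.13 in cold mice and 4.57 in ctrl mice, below Col6a3 at 23.2 in cold mice and 24.9 in ctrl mice.

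The collagens were read from long transcripts. Weighted by reads, the annotated transcripts assigned to them averaged 5811 ± 48.4 bases in cold mice and 5803 ± 45.7 bases in ctrl mice (SD, n = 3 each). All other protein-coding transcripts averaged 2492 ± 58.7 bases in cold mice and 2539 ± 37.0 bases in ctrl mice. Transcripts of at least 5000 bases took 83.6 ± 1.71% of collagen reads in cold mice and 83.6 ± 1.40% in ctrl mice, against 9.34 ± 0.65% and 9.63 ± 0.26% of other coding reads in the same groups. These are annotated lengths of the assigned transcripts, not lengths of the reads. Type VI was the class with the widest gap between groups. Transcripts of at least 5000 bases took 46.0 ± 3.02% of its reads in cold mice and 51.7 ± 2.90% in ctrl mice. The groups did not overlap, with 48.2% in cold 12 just below 48.4% in ctrl 5. The main transcripts of Col6a1 (4100 bases) and Col6a2 (3949) lie under 5000 bases, and those of Col6a3, Col6a5 and Col6a6 above. This share therefore follows the balance of reads between these genes and is not separate from the Col6a5 and Col6a6 values.

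Of 224 annotated collagen transcripts, 96 had reads, 26 were tested and 0 were called by edgeR, beside 0.381% of all 12325 transcripts tested. An unadjusted p under 0.05 was reached by 3 collagen transcripts with edgeR and by 2 each with DESeq2 and limma-voom, beside 6.87% of all transcripts with edgeR. Of the 14 members with at least 200 reads, 9 had over 90% of their reads on their longest coding transcript. Col1a1-201 and Col6a1-201 took all reads of their genes. Col6a3 was an exception of another kind, with 97.5% of reads on Col6a3-202 of 9001 bases and 1.00% on the longest, Col6a3-201 of 10106 bases.

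Reads of Col4a1, Col15a1, Col18a1 and Col6a2 were divided among transcripts. Col4a1-201, the full coding transcript, took 71.2%, 67.1% and 61.5% of the gene's reads in cold 7, 12 and 16, against 65.9%, 65.9% and 63.2% in ctrl 5, 6 and 10. Col4a1-208 took 27.6%, 31.2% and 35.2% in cold mice, against 30.7%, 32.2% and 34.4% in ctrl mice. It is annotated as a target of nonsense-mediated decay, which removes transcripts with an early stop codon, and held 1109 reads. The groups overlapped for both. Beside their ends, the 2 differ by a 17-base exon, exon 50 of 53, at chr8:11204536-11204552 on the minus strand of GRCm38, 1740 bases from the 3′ end. Its length is not a multiple of 3, so it shifts the reading frame. Col15a1-202 and Col15a1-201 differ by a 66-base exon, exon 17 of 40, at chr4:47280149-47280214 on the plus strand, which keeps the frame. Both are shown with 24 bases of the neighbouring exons on each side, the exon in capitals.
Col4a1-208: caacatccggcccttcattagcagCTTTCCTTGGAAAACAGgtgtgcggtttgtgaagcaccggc
Col15a1-202: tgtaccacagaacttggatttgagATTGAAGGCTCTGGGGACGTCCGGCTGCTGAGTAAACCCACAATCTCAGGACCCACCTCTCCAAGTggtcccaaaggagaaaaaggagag
Whether an exon as short as 17 bases was placed correctly in error-prone long reads was not tested.

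**Figure D5:**
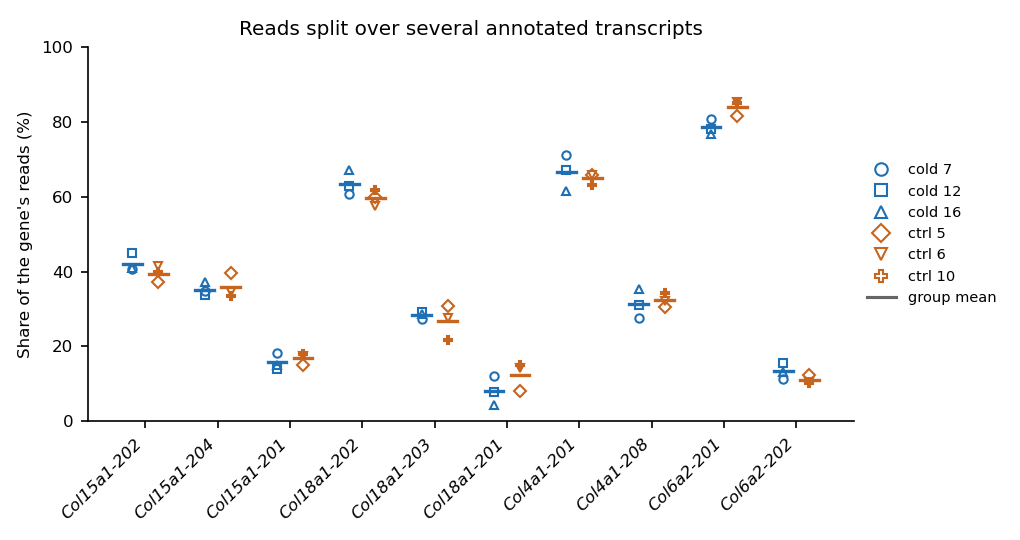
Points give the percent of a gene's reads assigned to each transcript in each mouse, cold mice left and ctrl mice right, for transcripts with at least 10% of the reads of the 4 genes whose reads were divided, and lines give group means. Col4a1-208 lies at 27.6% to 35.2% in cold mice and 30.7% to 34.4% in ctrl mice, and groups overlap in all transcripts plotted but Col6a2-201.

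Col15a1-202 took 42.1 ± 2.37% of the gene's reads in cold mice and 39.5 ± 2.11% in ctrl mice (SD, n = 3 each). Col15a1-204, annotated to start 79908 bases downstream and to code for the C-terminal part, took 35.2 ± 1.77% in cold mice and 35.9 ± 3.24% in ctrl mice. Its annotated 3′ end is that of Col15a1-202, and whether its reads began at the downstream start was not tested. Col15a1-201 took 15.8 ± 2.14% in cold mice and 16.8 ± 1.44% in ctrl mice. In the annotation, Col18a1 has an upstream start for Col18a1-202, and starts 52602 and 52843 bases downstream for Col18a1-201 and Col18a1-203. Col18a1-202 took 63.5 ± 3.25% in cold mice and 59.8 ± 2.22% in ctrl mice, and Col18a1-203 took 28.4 ± 1.05% in cold mice and 26.7 ± 4.62% in ctrl mice. Col18a1-201 took 8.05 ± 3.94% in cold mice and 12.4 ± 3.71% in ctrl mice, from 70 reads. Reads of Slc19a1, which overlaps Col18a1 on the opposite strand, numbered 82.

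Col6a2-201 took 80.9%, 78.0% and 76.8% of the gene's reads in cold 7, 12 and 16, against 81.6%, 85.2% and 84.9% in ctrl 5, 6 and 10, with no overlap. The widest Wilson 95% half-width of 1 mouse's share was 7.14 percentage points, which measures counting error within 1 mouse and not the difference between group means. Col6a2-202, which ends in another last exon, took 13.4 ± 2.21% in cold mice and 11.1 ± 1.24% in ctrl mice, with overlap. Col6a2-203, annotated as a transcript with a retained intron, took 7.83%, 6.29% and 9.93% in cold mice, against 5.88%, 4.32% and 4.82% in ctrl mice. Its groups did not overlap, on 57 reads in all, and it did not pass the filter. Transcript usage, the division of a gene's reads among its transcripts, was called in 0 of these 4 genes by edgeR (adjusted p 1.00 in each, unadjusted Simes p 0.196 to 0.899). It was called in 0 of all 2619 genes tested, and 0.955% of all genes had an unadjusted p under 0.05.

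The miR-29 family is a set of microRNAs known to repress many collagen mRNAs in mouse and human cells. Its mature forms from RefSeq (GRCm38.p6) share 1 seed, shown in capitals.
mmu-miR-29a-3p: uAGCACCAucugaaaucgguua
mmu-miR-29b-3p: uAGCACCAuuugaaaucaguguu
mmu-miR-29c-3p: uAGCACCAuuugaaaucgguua
The matching letters TGGTGCT occurred in the 3′ UTR of 13 of 20 tested collagens (65%) and of 1409 of 9370 other coding genes tested (15.0%). Among 3′ UTRs of 800 to 1600 bases the shares were 63.6% (7 of 11) for collagens and 11.8% (257 of 2172) for other genes. Single matches are shown from a fibrillar, a type IV and a type VI gene, with the match in capitals, at chr1:45348966-45348990 (plus strand), chr8:11199760-11199784 (minus) and chr1:90767410-90767434 (minus) of GRCm38.
Col3a1: cttcaaaatgtctcaaTGGTGCTat
Col4a1: tgccaccgtcacaacaTGGTGCTac
Col6a3: acgtgacctgtcaataTGGTGCTaa
Col5a1 held 4 matches, and Col5a3 and Col4a5 held 3 each. No match was found in Col6a5, Col6a6, Col6a1, Col1a2, Col18a1, Col12a1 or Col14a1. The 13 genes with a match had log2 fold changes of -0.30 to 0.32 with a median of 0.11. The 7 without had -1.08 to 0.38 with a median of -0.10. The microRNAs themselves are not measured in poly-A libraries.

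Genes that fold, process, bind or accompany collagens were read in 4 lists. Of 59 tested genes in them, 0 were called by edgeR, DESeq2 or limma-voom, and 5, 3 and 5 had an unadjusted p under 0.05 by these tools. Over all genes 8.43% had one by edgeR, which is close to 5 of 59, and 50.81% had a log2 fold change above 0. In the list of folding and modification in the endoplasmic reticulum, 20 of 24 genes were tested, 12 above 0 and 8 below, with a median log2 fold change of 0.08. P4ha1, a catalytic subunit of the prolyl hydroxylase that stabilises the triple helix, had 35.8, 21.8 and 17.9 CPM in cold 7, 12 and 16, against 9.60, 13.4 and 15.0 CPM in ctrl 5, 6 and 10. Every cold mouse was above every ctrl mouse, and the log2 fold change was 0.96 ± 0.32 (SE; edgeR adjusted p = 0.315). Crtap, part of the prolyl 3-hydroxylation complex, had 91.0, 78.0 and 62.6 CPM in cold mice, against 119, 90.3 and 104 CPM in ctrl mice (log2 fold change -0.40, edgeR adjusted p = 0.529). P3h4, a scaffold of lysine hydroxylation, and Creb3l1, a transcription factor of the secretory pathway, had log2 fold changes of -0.59 and -0.42.

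In the list of propeptide cleavage, crosslinking and fibril assembly, 15 of 20 genes were tested, 13 above 0 and 2 below, with a median of 0.14. Lox, the lysyl oxidase that crosslinks fibrillar collagen and elastin, had 46.9, 47.8 and 79.2 CPM in cold mice, against 23.5, 41.1 and 29.1 CPM in ctrl mice. The groups did not overlap, and the log2 fold change was 0.86 ± 0.25 (SE; edgeR adjusted p = 0.176). Without cold 7 the edgeR adjusted p of Lox was 0.0477. Loxl1, a relative that acts mainly on elastin, had 96.5, 72.1 and 90.7 CPM in cold mice, against 66.1, 59.7 and 60.0 CPM in ctrl mice (log2 fold change 0.49, edgeR adjusted p = 0.357). Its groups did not overlap either. The proteoglycan genes Bgn and Fmod, whose products bind fibres, had log2 fold changes of 0.26 and -0.42.

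In the list of receptors, uptake and degradation, 13 of 25 genes were tested, 5 above 0 and 8 below, with a median of -0.08. Timp3, a matrix-bound inhibitor of metalloproteinases, had 256, 219.7 and 193 CPM in cold mice, against 271, 269.5 and 296 CPM in ctrl mice, with no overlap (log2 fold change -0.30, edgeR adjusted p = 0.573). Timp2, Itga1 (a collagen-binding integrin subunit) and Antxr1, which binds type VI collagen, had log2 fold changes of -0.17, -0.13 and -0.24. In the list of basement membrane partners, 11 of 19 genes were tested, 7 above 0 and 4 below, with a median of 0.05. Pxdn, the peroxidasin that crosslinks type IV collagen, had 105, 125 and 109 CPM in cold mice, against 88.5, 79.9 and 111 CPM in ctrl mice (log2 fold change 0.31, edgeR adjusted p = 0.652). The laminin genes Lamb1 and Lama4 had log2 fold changes of 0.30 and -0.17, and the nidogen gene Nid2 -0.31.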

How the data were processed

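Direct cDNA libraries from 100 ng poly-A RNA of epididymal fat of 3 cold and 3 ctrl mice were used. As deposited, the values are raw counts of reads on GENCODE transcripts, in 12 files, 2 to a mouse. Reads were aligned with minimap2 to GRCm38, per the submitters' processing notes. Not given in the sources used here are the counting tool, strand use, the handling of reads that match several transcripts, and what separates files X1 and X2. Overlapping or near-identical genes may therefore share reads by unknown rules. The files of a mouse differed little more than by counting noise (chi-square per degree of freedom 1.02 to 1.06) and were summed. Of 61729 transcript identifiers, 191 were not found in GENCODE M21. The reads of these, 0.139% to 0.165% of a library, were left out of gene counts.

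Both levels, gene and transcript, were fitted in edgeR 4.0.16 (TMM, filterByExpr, quasi-likelihood test, R 4.3.3) and Benjamini-Hochberg adjustment over all features, threshold 0.05. TMM factors were close to 1. Usage was tested with diffSpliceDGE and Simes p-values. DESeq2 1.42.0 and limma-voom (limma 3.58.1), other filters, single files and leaving out each mouse were alternatives. On simulated counts for 9772 genes, 62% of genes changed 2-fold and 94% of those changed 4-fold were called, and 4.29% of calls were false. Wilson intervals and the limit of a 0 count cover counting error only.

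The members, lists and promoter and microRNA motifs were chosen with earlier results of these data known. Values by mouse are given for members past the threshold, the 4 highest members of each class (all of type VI) and the 6 smallest p, and for the 4 smallest p of each list; among transcripts, for those with at least 10% of the reads of a member with 200 or more. Some of these are given as group values or fold changes. Col4a3bp, which is not a collagen, was left out by the symbol rule.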

Additional observations from a re-analysis of the deposited data

How the results depend on the processing

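The count of collagen genes called was 1 in the chosen fit, 0 by DESeq2, by limma-voom and with X2 files alone, and 3 with no filter on low counts (Col6a6, Col6a5 and Col4a4). With each mouse left out in turn it was 0 to 1, and 0 without cold 12, cold 16, ctrl 6 or ctrl 10. A fit without cold 7 and cold 12 was chosen after the data were seen and leaves 1 cold mouse, cold 16, assumed to vary like the others. Its log2 fold changes were -1.40 for Col6a5, 0.83 for Col5a3 and 0.75 for Col4a2. Cold 16 was the lowest cold mouse for Col6a5 and the highest for Col5a3 and Col4a2. These larger values therefore follow from the choice of mouse, and calls from this fit are not given. The count of genes of the 4 pathway lists was 0, and 1 (Lox) with no filter and without cold 7 (0 to 1 over single mice). The count of collagen transcripts was 0, and 1 (Col6a6-202) with no filter and without cold 7 (0 to 1 over single mice). All genes called numbered 64, and 371 with no filter, 38 with X2 files, 141 without cold 7 and cold 12, and 35 to 199 with single mice left out. The log2 ratio of other collagens was -0.35 without cold 16 and ctrl 6, also added after seeing the data. For this class cold 16 was the highest cold mouse (908 CPM) and ctrl 6 the lowest ctrl mouse (679 CPM). Leaving out these mice lowers the ratio by construction, so no conclusion is drawn from it. Some fold changes that were not called in the chosen fit changed sign, and none was called where its sign was turned. With X2 files these were Col1a1 (0.0556) and Nid2 (0.0640), and with X1 files Lama4 (0.0238). Without cold 7 and cold 12 they were Col15a1 (0.33), Col18a1 (0.0859), Col1a2 (0.0313), Col6a1 (0.0349), Col6a3 (0.0216), Col8a1 (0.15), Lama4 (0.0539) and Nid2 (0.17). Over fits lacking 1 mouse, Col15a1 had log2 fold changes of -0.31 to 0.0529, Col1a1 -0.32 to 0.0647, Col1a2 -0.18 to 0.0734, Col3a1 -0.42 to 0.0670, Col4a1 -0.0503 to 0.24, Col4a6 -0.62 to 0.0627, Col5a3 -0.000696 to 0.53, Col6a1 -0.27 to 0.0720, Col6a3 -0.26 to 0.12, Lama4 -0.30 to 0.0229 and Timp2 -0.33 to 0.0195. The causes were not tested. No paired analysis was possible because the mouse numbers are not shared between the groups. At 1 read for 0.747 to 1.38 CPM, the 16 members with reads that did not pass the filter had 2 to 47 reads in all 6 mice, and Col4a4 was the 1 among them called with no filter.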
